A study of Mus musculus with 2 samples.

Results

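The genes described here encode splicing factors and heterogeneous nuclear ribonucleoproteins (hnRNPs). They were chosen by symbol, as those starting with Srsf, Sf3a, Sf3b, Snrp, Hnrnp, Prpf, Lsm or U2af, with Snrpn and the genes of chromosome 14 left out. This gave 58 of the 10313 genes named on the arrays, measured by 105 of 15273 probe sets named to a single gene. RNA came from 2 cultures of the mouse embryonic stem cell line 46C, a line with a green fluorescent protein reporter at Sox1. The control culture and the culture overexpressing the long noncoding RNA lincU were both kept on feeders, in medium with 15% serum and leukaemia inhibitory factor (LIF) at 1000 U/ml, and feeders were removed before harvest. How lincU was overexpressed, what the control cells carried and whether either line was a single clone are not given in the sources used here. Each group had 1 Affymetrix array, so no difference has a replicate check and no test was made. The precision of every value is limited by that number of arrays.

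Introns are removed by the spliceosome, which is built from small nuclear RNAs and their proteins (snRNPs). The U1 snRNP binds the start of the intron, U2AF and the U2 snRNP recognise its end and branch point, and the tri-snRNP of U4, U6 and U5 then joins. SR proteins and hnRNPs bind the pre-mRNA and favour or disfavour the use of particular exons. Several of these genes control their own level through exons that send the transcript to decay, and several hnRNPs also act in mRNA export, stability and translation.

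Values are log2 signals as deposited. A probe set was called bright when its higher value of the 2 reached the median of named probe sets on that array, 7.96 for control and 7.90 for overexpression. Each gene is given by its probe set with the highest mean, and differences are log2, overexpression minus control. A floor was set at each array's 25th percentile, 5.73 and 5.65, and lower values were raised to it. The embryonic stem cell markers were all bright, 7 of 7 measured. In overexpressing cells 4 were higher and 3 lower, with a median difference of 0.18, from -0.43 for Utf1 to 0.65 for Esrrb. Of 17 measured feeder fibroblast markers 13 were bright, 6 higher and 7 lower in overexpressing cells, with a median difference of -0.04, and their part in the results was not tested. In cultured cells measured in bulk, fewer cells of a type and less RNA per cell cannot be told apart.

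The splicing genes had strong signal on both arrays and differed little between them. Of the 58 genes, 57 were bright and 52 were at or above the 75th percentile of both arrays, 10.08 and 10.06. The median log2 signal of the 57 was 12.42 in control and 12.41 in overexpressing cells, against 10.12 and 10.10 over all bright genes. Signals of different probe sets depend on their binding as well as on the transcript, so these levels do not order the genes by abundance. The exception was Sf3b5, a small SF3b subunit, whose only probe set read 3.97 and 2.48, both under the floor, and gave no difference.

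**Figure D1:**
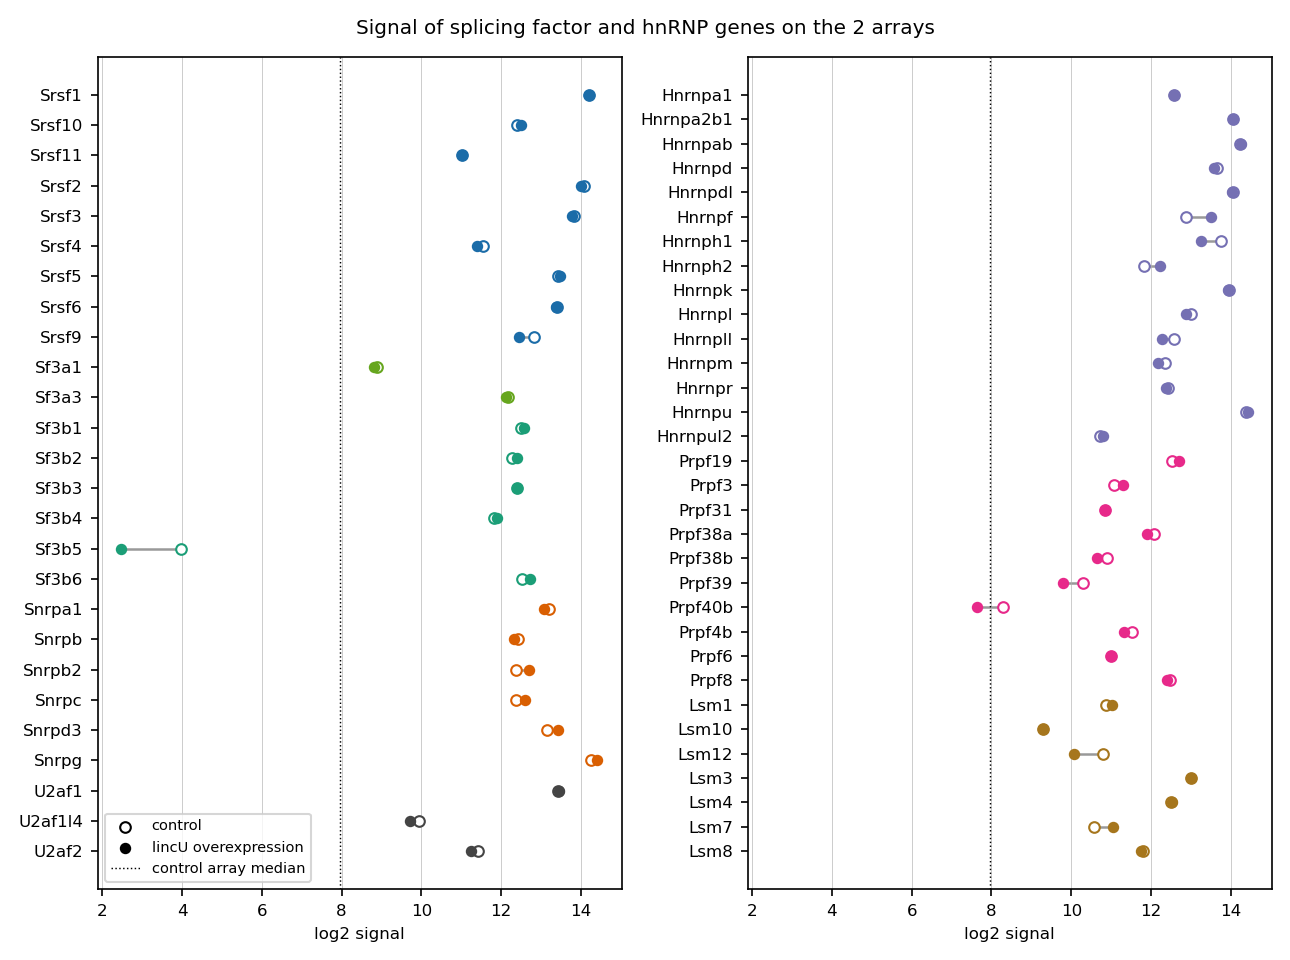
Log2 signal of the 58 genes in control (open circles) and lincU-overexpressing cells (filled circles), by gene, coloured by family; the dotted line is the control array's median of 7.96. Most pairs of circles overlap, and Sf3b5 alone lies under the floor on both arrays.

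No splicing gene differed by 2-fold. Over all 5609 bright genes, 1.53% were higher and 1.3% lower by at least that much. At 1.5-fold, 1 splicing gene was higher, Hnrnpf, against 4.65% of bright genes, and 2 were lower, Lsm12 and Prpf40b, against 6.69%. The shares among the 57 were under these backgrounds, but counts this small do not set the splicing genes apart at either threshold. Brighter genes vary less between arrays, and among the 2716 genes at or above the 75th percentile on both arrays 2.28% were 1.5-fold higher and 2.21% 1.5-fold lower, against 1 and 1 of the 52 splicing genes there. In that set 0.7% were 2-fold higher and 0.184% 2-fold lower, and no splicing gene was either.

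The median difference of the 57 genes was -0.01, with an SD over genes of 0.24, against a median of 0.00 and an SD of 0.40 over all bright genes. Among genes at or above the 75th percentile on both arrays the SDs were closer, 0.22 for the 52 splicing genes and 0.28 for all 2716. Of the 57, 44 (77.2%) differed by less than 0.23, the SD of the difference between probe sets of 1 gene over the whole table. The share was 58.0% of all bright genes and 70.9% of those at or above the 75th percentile on both arrays. Among probe sets at or above that percentile the SD was 0.13, and some of the 44 differed by more than that. The direction of such small differences depends on the scaling. With the deposited values 26 were higher and 31 lower, where 50.2% of all bright genes were higher and 49.8% lower. With arrays centred on their medians 36 were higher and 21 lower. With quantile normalization 18 were higher and 39 lower, and with a loess trend subtracted 19 and 38. Over all bright genes the median was 0.06 with centred arrays, -0.01 with quantile normalization and -0.0011 with loess. The median of the 57 was 0.04, -0.06 and -0.05 in turn. It lay under that of all bright genes each time, by less than the probe set SD.

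**Figure D2:**
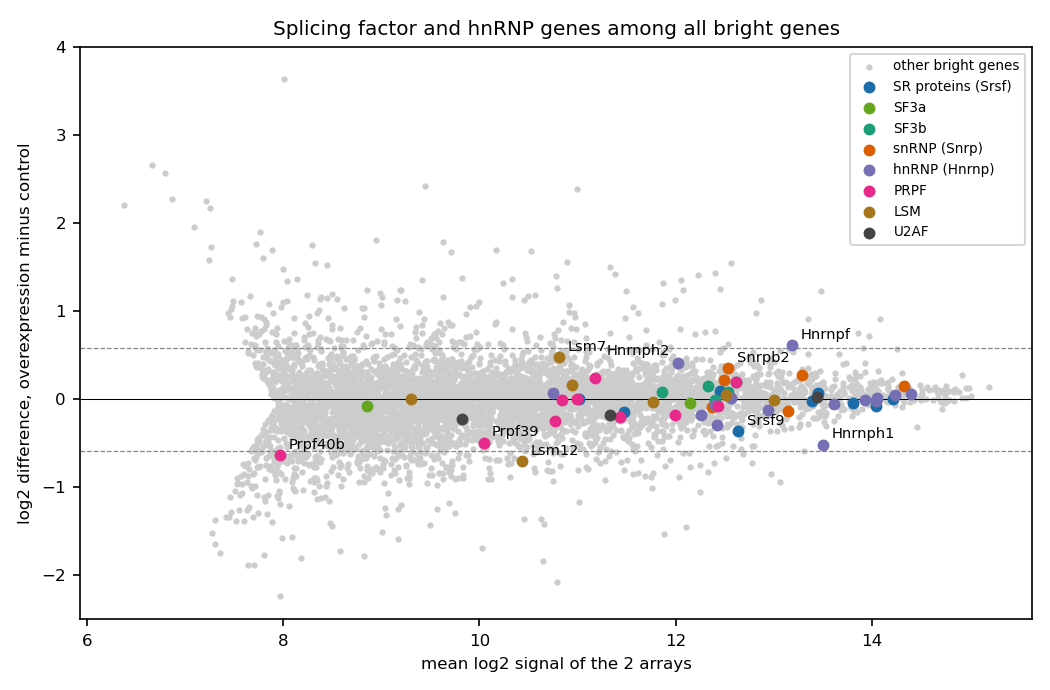
Log2 difference (overexpression minus control) against the mean log2 signal of the 2 arrays for the 5609 bright genes (grey) and the 57 bright splicing genes (coloured by family); dashed lines mark 1.5-fold. Lsm12 and Prpf40b lie under the lower line and Hnrnpf above the upper one.

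**Figure D3:**
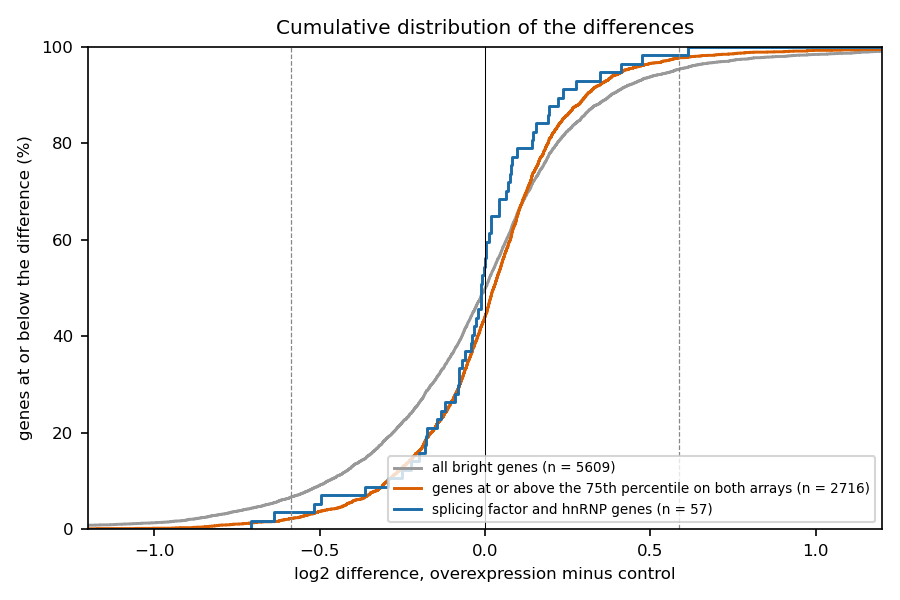
Percentage of genes at or below a given log2 difference for all 5609 bright genes (grey), the 2716 genes at or above the 75th percentile on both arrays (orange) and the 57 splicing genes (blue); dashed lines mark 1.5-fold. The blue and orange curves lie inside the grey one at both ends, and near 0 the blue one is the higher, with 31 of 57 splicing genes below 0 against 1195 of the 2716.

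The Sm ring proteins and the proteins specific to single snRNPs, which form the body of the U1, U2, U4 and U5 particles, had a median difference of 0.18 over 6 bright genes, with 4 higher and 2 lower. Snrpb2, which encodes the B'' protein of the U2 snRNP, measured 12.36 in control and 12.71 in overexpressing cells, 0.35 apart on its only probe set. Snrpd3, an Sm ring protein, went from 13.15 to 13.42. These 2 and Snrpc were higher on the overexpression array. Snrpc, whose product in the U1 snRNP helps to bind the start of the intron, went from 12.39 to 12.61. Snrpg, another Sm ring protein, went from 14.26 to 14.40, a difference of 0.15, and its second bright probe set differed by 0.31. The 2 genes lower in overexpressing cells were Snrpa1 and Snrpb, so the family did not move as one. Snrpa1, the partner of Snrpb2 in the U2 snRNP, went from 13.21 to 13.08, with its 3 bright probe sets between -0.17 and 0.10. Snrpb, an Sm ring protein, went from 12.42 to 12.33. The median of the family was 0.24 with centred arrays and 0.13 with quantile normalization or loess, with 4 higher and 2 lower each time.

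The bright SF3a and SF3b subunits, which hold the U2 snRNP at the branch point, lay within the whole-table probe set SD of 0.23. Among probe sets at or above the 75th percentile on both arrays that SD was 0.13, and Sf3b6 and Sf3b2 lay beyond it. The 5 bright Sf3b genes had a median of 0.08, with 4 higher and 1 lower, and none differed by 1.5-fold. With probe sets averaged the median was -0.01, with 2 higher and 3 lower, so the family has no settled direction. Sf3b6, whose product contacts the branch point adenosine, went from 12.53 to 12.72, and its 3 bright probe sets were all higher, between 0.04 and 0.36. Sf3b1, the large subunit, went from 12.49 to 12.57 on its brighter probe set, while the other was lower by a difference of -0.14. Sf3b2 was higher on both of its probe sets, at 0.14 and 0.16. Sf3b3, the lowest of the 5, stood at 12.40 and 12.39. The 2 Sf3a genes were both lower by less than 0.1 on the chosen probe set, Sf3a1 from 8.90 to 8.82 and Sf3a3 from 12.16 to 12.12. Sf3a3 was higher on its second probe set, at 0.11.

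U2AF recognises the end of the intron as a pair of subunits. U2af1, which binds the final AG, stood at 13.43 in control and 13.45 in overexpressing cells. U2af2, which binds the polypyrimidine tract, went from 11.42 to 11.24, and U2af1l4, a paralogue of U2af1, from 9.94 to 9.71. All 3 differences were smaller than 0.23, and each gene had 1 probe set named to it alone. U2af2, at -0.18, lay beyond the SD of 0.13 among probe sets at or above the 75th percentile on both arrays. With quantile normalization or loess all 3 were lower.

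The LSM family held both the largest lower difference and 1 of the largest higher ones. Lsm12, an LSM-domain protein that is not part of the ring on U6 RNA, stood at 10.79 in control and 10.08 in overexpressing cells, which is a difference of -0.71 or 1.63-fold. It had a single probe set. Its 10 nearest bright genes on chromosome 11, 5 on each side, had a median difference of 0.06. Of the 57 genes Lsm12 alone passed 1.5-fold in all 11 alternative settings, but most of these could not change its value. Those of floor level, brightness, probe sets and members left its single bright probe set at -0.71 by construction. The settings that could move it gave -0.65 with centred arrays and -0.70 with quantile normalization or loess. A pseudocount of 64 in place of the floor gave -0.68. Lsm7, a subunit of the U6 ring, went from 10.58 to 11.05, a difference of 0.47 on a single probe set. The other measured subunits of that ring stayed close to 0, with Lsm3 from 13.01 to 13.00, Lsm4 from 12.49 to 12.53 and Lsm8 from 11.79 to 11.76. The ring therefore had 1 of 4 measured subunits beyond the probe set SD. Lsm1, which takes the place of Lsm8 in the cytoplasmic ring of mRNA decay, differed by 0.15, and Lsm10, a protein of the U7 snRNP of histone mRNA processing, stood at 9.30 on both arrays.

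Among the PRPF genes, those of the tri-snRNP lay between -0.08 and 0.24 and the others between -0.64 and 0.19. Prpf8, the core protein of the U5 snRNP at the catalytic centre, went from 12.47 to 12.39. Prpf6, which bridges U5 with U4 and U6, stood at 10.99 on both arrays, and Prpf31, a U4 protein, went from 10.85 to 10.84. Of these 4 genes only Prpf3, a U4 and U6 protein, differed by more than 0.23, from 11.06 to 11.30. The 6 remaining PRPF genes had a median of -0.22, with 5 lower and 1 higher.

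Prpf39 and Prpf40b, both relatives of yeast proteins of the U1 snRNP, had the lowest values of this family. Prpf40b, which has WW domains, went from 8.28 to 7.65, a difference of -0.64 on its only probe set. Its value in overexpressing cells was under that array's median of 7.90, so it was bright through the control array alone. With centred arrays, quantile normalization or loess it stood at -0.58, -0.57 and -0.56, under 1.5-fold. Prpf39 went from 10.29 to 9.80, a difference of -0.49, and its second probe set differed by -0.74. Both probe sets of Prpf39 were thus lower, and with probe sets averaged it stood at -0.62, past 1.5-fold. The 10 nearest bright genes had medians of 0.03 around Prpf39 and -0.04 around Prpf40b. Prpf38b and Prpf38a, which act in activation of the spliceosome, differed by -0.25 and -0.18. Prpf4b, a kinase gene, stood between -0.20 and 0.00 on its 3 bright probe sets. Prpf19, a ubiquitin ligase needed for catalytic activation, was the 1 higher gene, from 12.52 to 12.71. Over all 10 PRPF genes the median was -0.13, and between -0.16 and -0.07 under the 3 other scalings.

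The SR proteins, which bind exonic enhancers through RNA recognition motifs and recruit the U1 snRNP and U2AF through their arginine-serine domains, had the smallest spread of the families with 7 genes or more. The 9 genes had a median of -0.02 and an SD over genes of 0.14, and 8 lay within the probe set SD of 0.23. The SD over genes was 0.26 for the hnRNPs, 0.28 for PRPF and 0.35 for LSM. Brighter genes vary less between arrays, and median control signals were 13.41 for SR proteins, 13.00 for hnRNPs, 11.03 for PRPF and 10.86 for LSM. The spreads were not adjusted for signal. Among the hnRNPs the SD was 0.60 for the 3 F and H genes. It was 0.04 for the 5 A, B and D genes and 0.13 for the 7 others. A small spread was thus not particular to the SR proteins. Srsf1, the founding member, stood at 14.21 in control and 14.22 in overexpressing cells, and its 3 other bright probe sets were all lower, between -0.23 and -0.02. Srsf3, the smallest of the SR proteins, had 5 bright probe sets, all between -0.04 and 0.10. Srsf6 and Srsf2 were just as close to 0, with 3 bright probe sets between -0.11 and -0.02 and 2 between -0.08 and -0.04. Srsf10, a splicing repressor when dephosphorylated, had the highest value, from 12.41 to 12.50, with its 3 probe sets between 0.10 and 0.19. Srsf9 was the exception, from 12.82 to 12.46, a difference of -0.36 on 1 probe set. Srsf4, Srsf5 and Srsf11 differed by -0.14, 0.07 and -0.0021. Srsf4 thus lay beyond the SD of 0.13 among probe sets at or above the 75th percentile on both arrays. With the deposited values 3 of the 9 were higher and 6 lower, and with centred arrays 6 were higher and 3 lower, so the family has no settled direction.

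The hnRNPs of the A, B and D types were nearly level on the chosen probe set. Hnrnpa1, a repressor of exon inclusion, stood at 12.56 and 12.58, and Hnrnpa2b1 at 14.05 and 14.07, with its 4 probe sets between 0.02 and 0.26. Hnrnpd, which also binds AU-rich elements of unstable mRNAs, went from 13.64 to 13.58. All 5 genes of these types, Hnrnpab and Hnrnpdl included, differed by at most 0.06 on the chosen probe set. Other bright probe sets ran from -0.46 to 0.08 for Hnrnpdl and from -0.20 to 0.45 for Hnrnpab. Probe sets that also match a second gene, among them further ones for Hnrnpa1, were left out.

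The F and H hnRNPs, which bind runs of guanine, differed most within the hnRNP family and in opposite directions. Hnrnpf went from 12.88 to 13.49, a difference of 0.61 or 1.53-fold, while its second bright probe set went from 12.66 to 12.77, a difference of 0.11. Hnrnpf lay in the distal stretch of chromosome 6 from Rad18 to Resf1. Of the 96 other bright genes there, 80 were higher, with a median of 0.37, where 50.2% of all bright genes were higher. All 10 of the bright genes nearest to Hnrnpf were higher, with a median of 0.41. The limits of the stretch were chosen with earlier results of these data known, so its count is a description only. Whether Hnrnpf moved with its neighbours was not tested. The difference of Hnrnpf was 0.56 with quantile normalization and 0.57 with loess, both under 1.5-fold, and 0.36 with probe sets averaged. Hnrnph1 went the other way, from 13.76 to 13.24, a difference of -0.52 or 1.43-fold. Its second bright probe set was also lower, from 9.15 to 8.51, a difference of -0.63. Both Hnrnpf probe sets and the dimmer 1 of Hnrnph1 are of types that can bind several transcripts, names ending in _a_at or _x_at. With quantile normalization the difference of Hnrnph1 was -0.59, past 1.5-fold. Hnrnph2, the X-linked paralogue of Hnrnph1, went from 11.82 to 12.23, a difference of 0.41 on 1 probe set. The 10 nearest bright genes had a median of -0.15 around Hnrnph1 and 0.02 around Hnrnph2. None of these 3 genes lay within the whole-table probe set SD of 0.23, whereas 11 of the 15 hnRNP genes did.

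The other hnRNPs were level or slightly lower on the chosen probe set. Hnrnpk, which binds runs of cytosine, stood at 13.94 and 13.93, and its 2 probe sets differed by -0.01 and -0.0051. Hnrnpu, a scaffold protein of the nuclear matrix, had the highest signal of the hnRNPs, at 14.37 and 14.43. Hnrnpll, known for the switch of Cd45 isoforms in lymphocytes, was lower on both probe sets, at -0.29 and -0.22. Hnrnpm, Hnrnpl and Hnrnpr differed by -0.18, -0.12 and -0.07, and Hnrnpul2, the only 1 besides Hnrnpu to be higher, by 0.07. The second bright probe set of Hnrnpul2 went from 10.09 to 10.37, a difference of 0.28. Over the 15 hnRNP genes 7 were higher and 8 lower. With centred arrays 9 were higher and 6 lower, and with quantile normalization or loess 3 were higher and 12 lower.

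Probe sets of 1 gene were the repeated measurements at hand, and they hold no variation between cultures. Over 24 splicing genes with several bright probe sets, 67 in all, the difference varied between probe sets of a gene by an SD of 0.18, against 0.23 over 1732 genes of the whole table. Restricted to probe sets at or above the 75th percentile on both arrays, the SD was 0.13 for the splicing genes and 0.13 for all genes. By family, over all bright probe sets again, the SD was 0.07 for the SR proteins, 0.22 for the hnRNPs and 0.20 for SF3b. It was 0.13 for the snRNP proteins and for PRPF, with 2 genes each, and 0.11 for SF3a, with 1. In 7 of the 24 genes every bright probe set was higher, in 7 every one was lower, and in 10 the signs were mixed.

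Probe sets differed by 0.5 or more in 5 genes, 3 of them hnRNPs with 4 or 5 bright probe sets. Hnrnpu had bright probe sets between -0.32 and 0.45, with the extremes at a mean signal near 10 and the brighter pair at 0.02 and 0.06. In Hnrnpab the probe set of lowest signal, at 8.28 and 8.73, differed by 0.45, and the others by -0.20 to 0.04. Hnrnpdl ranged from -0.46 to 0.08, the lowest from a probe set of strong signal, at 12.47 in control and 12.01 in overexpressing cells. In Sf3b4, a subunit that binds upstream of the branch point, the brighter probe set differed by 0.08 and the dimmer by -0.43. Hnrnpf was the fifth gene, and there both probe sets had strong signal, at means of 13.19 and 12.72. By contrast, the 5 probe sets of Srsf3 and the 2 of Hnrnph1 spanned mean signals from 9.39 to 13.81 and from 8.83 to 13.50, and differed among themselves by 0.14 and 0.12. Which transcript ends each probe set binds was not analysed here. Of the 105 probe sets 5 were not bright and stayed out of this comparison, among them a second one for Snrpd3, at 4.92 and 6.20, and for Prpf6, at 5.39 and 5.97.

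**Figure D4:**
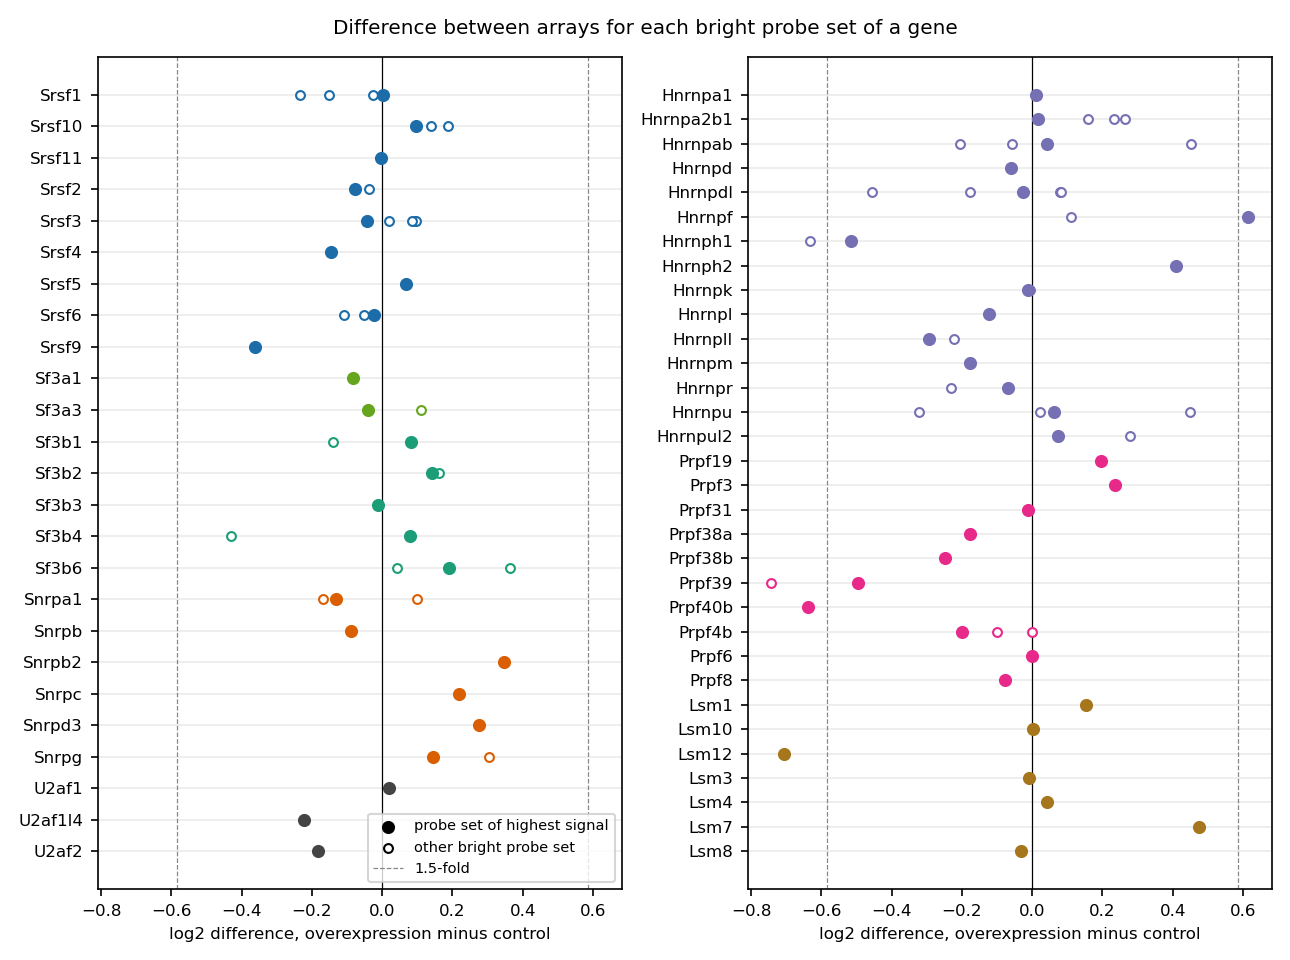
Log2 difference (overexpression minus control) of each bright probe set, by gene, for the 57 bright genes; filled circles are the probe set of highest signal, open circles the others, and dashed lines mark 1.5-fold. The SR proteins lie close together, while Hnrnpu, Hnrnpab, Hnrnpdl, Sf3b4 and Hnrnpf spread over 0.5 or more.

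The genes lay on 16 chromosomes. Start regions from RefSeq, build GRCm38.p6, were found for 49 of them, as 67 windows running from 250 bases before to 50 bases after a transcript start. These windows held a median of 26 CG dinucleotides, against 13 over 21263 windows of protein-coding genes. The SR protein windows held a median of 38 and the snRNP windows 18. On either strand, CCGGAAG, the letters of an ETS factor site, occurred in 32.8% of the 67 windows and in 11.6% of the protein-coding ones. The GC box GGGCGG occurred in 70.1% and 46.2%, CCAAT in 49.3% and 38.2%, and the E-box CACGTG in 11.9% and 7.84%. The YY1 letters AAGATGGCG occurred in 5.97% and 1.83%, and TATAAA in 7.46% and 12.6%. The CRE TGACGTCA occurred in 1.49% and 2.23%. None of these motifs contains another, and a match is a description of letters, not a bound site. Windows of 1 gene can overlap, and the share of a motif rich in C and G moves with the base composition, which was not adjusted for.

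The 150 bases before the start are shown for 3 lower and 3 higher genes, to set their start regions side by side. They are the 3 lowest and the 3 highest bright genes among those with a single window at the outer start of the gene, 21 genes in all. This leaves out Lsm12, Hnrnpf and Prpf40b, and also Hnrnph1, Srsf9, Hnrnpll and Lsm7, which differed more than some genes shown. U2af1l4, at -0.22, lay within the probe set SD of 0.23. Capitals mark any of the 7 motifs on either strand.
Prpf39 (chr12:65036184-65036333, plus strand): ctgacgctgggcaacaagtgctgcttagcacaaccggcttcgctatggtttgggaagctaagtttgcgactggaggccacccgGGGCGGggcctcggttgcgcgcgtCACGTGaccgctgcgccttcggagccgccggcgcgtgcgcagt
Prpf38b (chr3:108911730-108911879, minus strand): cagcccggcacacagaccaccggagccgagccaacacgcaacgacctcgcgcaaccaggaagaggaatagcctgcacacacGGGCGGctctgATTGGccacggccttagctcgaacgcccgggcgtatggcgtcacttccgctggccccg
U2af1l4 (chr7:30563190-30563339, plus strand): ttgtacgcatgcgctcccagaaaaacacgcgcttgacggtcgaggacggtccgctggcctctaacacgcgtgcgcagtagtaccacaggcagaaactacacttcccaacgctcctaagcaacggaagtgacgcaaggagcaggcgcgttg
Snrpd3 (chr10:75517892-75518041, plus strand): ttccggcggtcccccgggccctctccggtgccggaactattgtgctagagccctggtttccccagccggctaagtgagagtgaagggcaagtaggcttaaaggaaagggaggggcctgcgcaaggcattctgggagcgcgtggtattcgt
Snrpb2 (chr2:143062919-143063068, plus strand): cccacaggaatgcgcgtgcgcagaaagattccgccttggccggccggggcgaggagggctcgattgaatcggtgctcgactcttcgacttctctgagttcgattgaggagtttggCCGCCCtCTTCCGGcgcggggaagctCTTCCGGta
Hnrnph2 (chrX:134601029-134601178, plus strand): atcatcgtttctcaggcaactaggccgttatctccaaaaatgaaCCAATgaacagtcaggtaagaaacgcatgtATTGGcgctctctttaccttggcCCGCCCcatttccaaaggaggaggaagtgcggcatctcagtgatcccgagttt
The stretch of Snrpb2 holds the ETS letters at 2 places, as CTTCCGG, and the other 5 hold none. Of the lower genes Prpf39 has a GC box and an E-box, Prpf38b a GC box and a CCAAT box, and U2af1l4 none of the 7 motifs. Snrpb2 and Hnrnph2 also have a GC box, and Hnrnph2 a CCAAT box at 2 places. Snrpd3, among the higher genes, has none of the motifs, so the stretches shown do not share 1 motif by direction.

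Other genes of the splicing pathway, in lists that leave out the genes above and chromosome 14, had few differences past 1.5-fold. Over all bright genes 4.65% were 1.5-fold higher and 6.69% lower. Among genes at or above the 75th percentile on both arrays these shares were 2.28% and 2.21%. At such shares short lists hold few or none, so the counts do not set the lists apart. Of 12 measured snRNP proteins outside the naming rule, all bright, none differed by 1.5-fold, and their median was 0.09. Of 31 helicases and late factors, which drive the rearrangements of the spliceosome, 20 were higher and 11 lower, with a median of 0.02. The only 1 past 1.5-fold was Cherp, a U2-associated protein gene, from 11.20 to 10.44. The 13 genes of the exon junction complex and of SR-related proteins had a median of -0.01, with none past 1.5-fold. Of 8 bright genes of snRNP assembly, 7 were higher, with a median of 0.08 and none past 1.5-fold. Higher values were found in 50.2% of all bright genes and in 56.0% of those at or above the 75th percentile on both arrays. The directions in these lists are given for the deposited values only, and such small differences turn with the scaling. The 8 bright kinases and phosphatases of SR proteins, which set SR protein activity, had a median of -0.07 and none past 1.5-fold.

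The list of other splicing regulators had the widest values, with a median of -0.05 over 27 bright genes, 2 past 1.5-fold higher and 1 lower. Rbm5, which regulates the splicing of apoptosis genes, went from 6.80 to 8.16, a difference of 1.36, and was bright through the overexpression array alone. Ptbp3, a paralogue of the polypyrimidine tract repressor, went from 7.55 to 8.29 and was also bright through that array alone. Ptbp2, the paralogue that takes over from Ptbp1 in neurons, went the other way, from 11.15 to 10.33, a difference of -0.82. Both higher genes thus entered the 27 only through the array where they are high, so their count is no support for a difference of the list.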

How the data were processed

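Biotin-labelled RNA, amplified from total RNA, was measured on Affymetrix arrays, 1 per group, per the labels. The authors deposited log2 signals, 1 per probe set and array, a scale read here from their range. MAS5 and affy are named, without role or version, in the submitters' processing notes, with the scaling target not given in the sources used here. Detection calls were not used here.

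Of 16994 probe sets, 64 were controls, 15273 had 1 gene name in the platform annotation, 501 several and 1156 none. Symbols were updated through gene IDs with RefSeq (GRCm38.p6), which matched 15252 and left 21 with the array's symbol. Values were used without further scaling, with a floor at the 25th percentile. Where both arrays were under the floor the difference was set to 0. Named were the genes of highest signal, highest and lowest difference per family, those past 1.5-fold, the 5 with the widest probe set range and any under the floor. Further members stand beside them to complete a complex or family. The members, lists and rules were chosen with earlier results of these data known, and the roles used for grouping after the values were seen. Of genes in the lists, those past 1.5-fold were named after their values were seen. The counting was tested on simulated data. Python 3.11.15, pandas 2.3.3 and statsmodels 0.14.6 were used.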

Additional observations from a re-analysis of the deposited data

How the results depend on the processing

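With 1 array per group, 11 alternatives of scaling, floor, brightness, probe set choice and members were set beside the reported values. No splicing gene was 2-fold higher or lower under any of them. The count 1.5-fold higher was 1, Hnrnpf. It became 0 with quantile normalization, loess, averaged probe sets, with _s_at, _x_at and _a_at probe sets left out, or with the chromosome 6 stretch left out, which holds Hnrnpf. The count 1.5-fold lower was 2, Lsm12 and Prpf40b. It became 1, Lsm12, with centred arrays, loess, a pseudocount of 64, or brightness at the 75th percentile. With averaged probe sets it was 3, with Prpf39 added, and with quantile normalization it was 2, with Hnrnph1 in place of Prpf40b. The counts over all bright genes moved too, from 261 higher and 375 lower of 5609. They were 320 and 302 of 5610 with centred arrays, 291 and 330 with quantile normalization, and 299 and 318 with loess. A pseudocount gave 201 and 280 of 5609, and averaged probe sets 221 and 352. Brightness at the 75th percentile gave 99 and 100 of 2980, and leaving out the 3 probe set types 203 and 289 of 4267. The median difference of the bright splicing genes lay between -0.06 and 0.04. Its sign turned with centring, where the median over all bright genes was 0.06. The SD between probe sets lay between 0.14 and 0.24. Of 258 recomputed differences of 24 named genes, 254 moved by less than 0.23. The 4 others were Hnrnpf at 0.36 and Sf3b4 at -0.18 with averaged probe sets, and Srsf1 at -0.23 and Hnrnpdl at -0.46 with the 3 probe set types left out. Many of the 258 values could not move, so the 254 are no measure of stability. Changes of floor level or brightness, or leaving out the chromosome 6 stretch, returned every value unchanged. Averaging probe sets or leaving out the 3 types could not move genes with a single _at probe set. No floor, or a floor at the 40th percentile, left the counts as they were. Apart from averaging and leaving out probe sets or genes, whose construction removes or adds the values concerned, the cause was not tested. No paired analysis was possible because the groups share 1 replicate number and have 1 array each.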
